A study of Mus musculus with 6 samples.

Results

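The SoxF genes Sox7, Sox17 and Sox18 and 7 forkhead genes of the lung vessels, Foxf1, Foxc1, Foxc2, Foxo1, Foxo3, Foxp1 and Foxp2, were followed in RNA from sorted lung endothelium at 18 and 8 months of age. The 10 genes were chosen by symbol, and all 10 were found among the 24520 Ensembl gene identifiers of the deposited table. Endothelial cells, which line blood and lymph vessels, had been sorted by flow cytometry from lungs of wild-type mice, and RNA was sequenced from 3 libraries at 18 months (labelled Aged) and 3 at 8 months (labelled mAdu). Both ages carried the same genotype, and no agent is listed for either age. The sources used here do not give sex, strain or the markers of the sort. Whether the libraries of an age are separate mice is not stated, so a p-value reflects the spread among these libraries, part of which may be technical.

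SoxF proteins are transcription factors that bind DNA through an HMG box. In the mouse they take part in arterial and lymphatic differentiation and cover for one another in many vessels. Forkhead proteins bind DNA through a winged-helix domain. FOXF1 is required for lung capillaries, FOXC1 and FOXC2 for arteries and lymphatic valves, and FOXP proteins, which act as dimers, for lung development. FOXO proteins are kept out of the nucleus when AKT phosphorylates them, so their activity is set to a large part after the RNA is made.

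Levels are in TPM, a relative abundance within a library that is corrected for transcript length, so that levels of different genes can be set side by side. TPM keep no read depth, and the depth of each library is unknown. The columns summed to between 869315 and 876126 TPM, and 17325 to 17513 genes per library lay above 0. Across the tested genes, libraries correlated in log2(TPM + 1) at 0.974 to 0.982 within an age and 0.966 to 0.977 across ages, over genes that are not independent replicates. All 10 endothelial markers on a fixed list were present, with sums of 12350 to 13170 TPM at 18 months and 13350 to 14710 TPM at 8 months. Epithelial markers were present too, at 9506 to 19340 TPM and 11010 to 20190 TPM, with Sftpc, a surfactant gene, and Scgb1a1, a club cell gene, making up most of them. Macrophage and monocyte markers lay at 1026 to 1909 TPM at 18 months, against 743.6 to 1903 TPM at 8 months. All 8 of them that were tested had log2 differences above 0, with a median of 0.66, and without Lyz2, the most abundant, their sums did not overlap, at 369.5 to 673.7 TPM and 175.6 to 360.5 TPM. Their part in the values of the 10 genes was not tested.

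The 3 SoxF genes were distinguishable in sequence, which matters because their levels are compared with one another below. In the GENCODE transcripts, the longest run shared between any pair of coding sequences was 29 bases, for Sox17 and Sox18. No sequence of 31 bases in a SoxF transcript occurred in another of the 10 genes. Sox17 differed from the others in that 16.9% of its annotated exon bases lay under exons of Gm37587 on the opposite strand. The library kit is not stated to keep the strand, so the Sox17 level may hold reads of that transcript.

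The paralogs Foxo1 and Foxo3, and Foxc1 and Foxc2, were closer to each other. These most alike coding stretches of 90 bases from the GENCODE transcripts, with capitals for the bases that each pair shares, lie in the forkhead region and show where reads could be exchanged.
Foxo1: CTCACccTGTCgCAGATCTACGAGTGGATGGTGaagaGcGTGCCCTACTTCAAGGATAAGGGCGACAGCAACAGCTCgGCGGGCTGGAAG
Foxo3: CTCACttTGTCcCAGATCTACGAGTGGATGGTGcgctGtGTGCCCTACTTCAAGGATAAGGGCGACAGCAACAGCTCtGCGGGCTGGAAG
Foxc1: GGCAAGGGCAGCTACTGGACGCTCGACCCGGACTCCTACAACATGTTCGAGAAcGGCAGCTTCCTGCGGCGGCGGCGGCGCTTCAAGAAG
Foxc2: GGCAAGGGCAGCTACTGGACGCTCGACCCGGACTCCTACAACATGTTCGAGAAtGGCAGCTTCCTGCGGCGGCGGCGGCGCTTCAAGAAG
Foxo1 and Foxo3 were the same at 81 of the 90 bases, with a longest shared run of 38 bases. Foxc1 and Foxc2 were the same at 89 of 90, with a longest shared run of 53 bases. Even so, the share of 31-base sequences found in any other gene was 0.106% for Foxo3, 0.636% for Foxc1 and 1.37% for Foxc2. It was 8.00% for Foxo1, mostly through Gm20402, which overlaps 7.78% of the Foxo1 exon bases on the opposite strand. Neither Gm20402 nor Gm37587 was found by name in the deposited table.

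The 10 genes spanned levels from among the highest of the tested genes down to 0. Foxf1 was the highest in all 6 libraries, with a mean of 310.6 TPM that lay above 96.5% of the tested genes. Sox18 followed at 167.8 TPM, Foxp1 at 121.6 TPM and Sox7 at 115.4 TPM. Foxo1 lay at 25.6 TPM and Sox17 at 16.0 TPM. Foxc1 was barely present at 1.17 TPM, Foxp2 lay at 0.127 TPM, Foxc2 at 0.0396 TPM, and Foxo3 was listed at 0 in all 6 libraries. Sox18 lay above Foxp1 in all 6 libraries although their ranges overlapped, whereas Foxp1 lay above Sox7 in 3 of 6, so that this pair of neighbours could not be ordered. From Sox7 down to Foxp2, the range of each gene lay wholly above that of the next, and Foxp2 and Foxc2 overlapped.

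**Figure D1:**
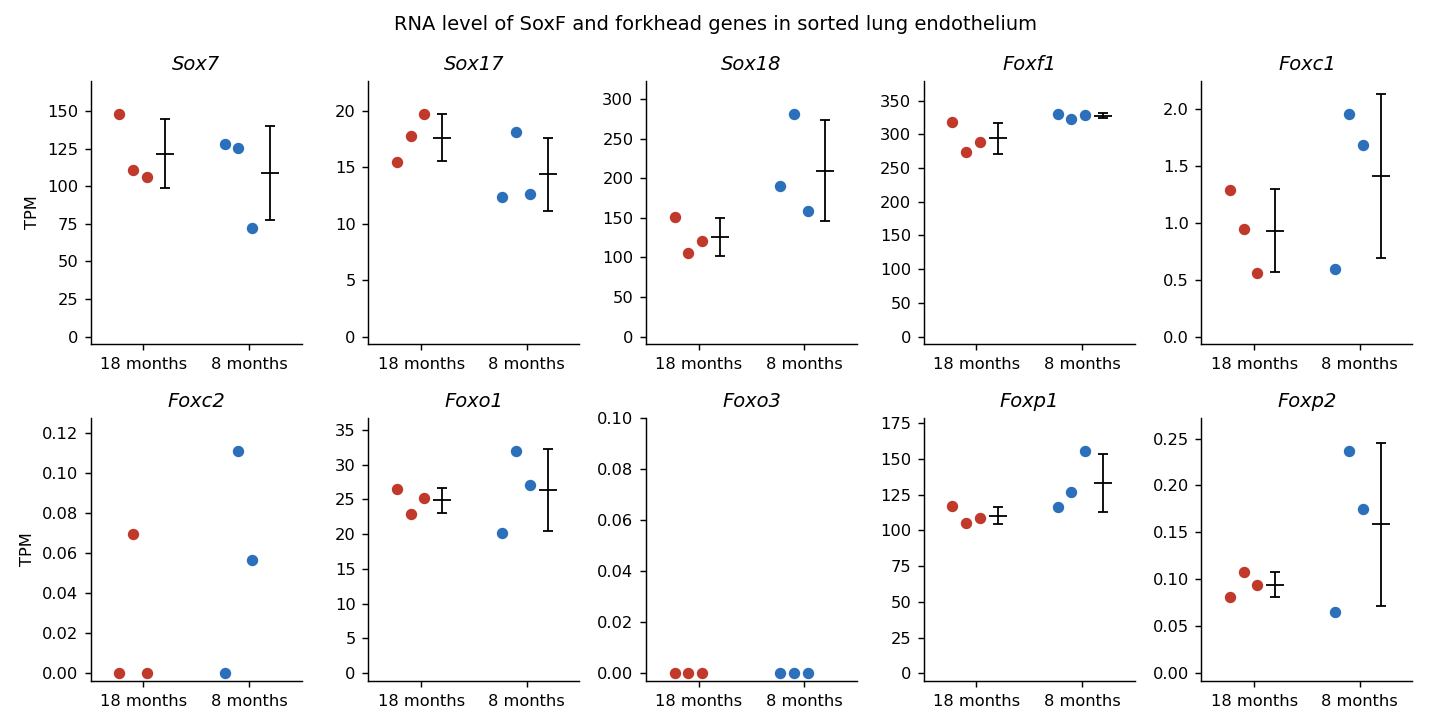
RNA level in TPM of each of the 10 genes, with 1 point per library, 18 months left and 8 months right, and the mean with SD as a bar where no library is at 0 (n = 3 per age). Sox18 and Foxf1 are the genes whose 18-month points all lie below the 8-month points, and Foxo3 lies at 0 throughout.

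The age comparison used limma on log2(TPM + 1). It covered the 12748 genes that averaged 1 TPM or more over the 6 libraries, with Benjamini-Hochberg adjustment over all of them and 0.05 as the threshold. Of the 10 genes, 7 were tested. Foxc2, Foxo3 and Foxp2 were below the filter. None of the 7 passed in limma, where 0.0235% of all tested genes passed, and 1 of the 7, Sox18, had an unadjusted p under 0.05, where 13.4% of all tested genes did. In 2 of the 7, Sox18 and Foxf1, the ages did not overlap, both lower at 18 months, against a background of 18.7% in either direction and 14.2% lower. With 7 genes tested, counts of this size are not a result about the members. Log2 differences, given as 18 minus 8 months, were below 0 in 5 of the 7 and in 66.2% of all tested genes. Over all genes 440 (3.45%) were higher and 1274 (9.99%) lower at an unadjusted p under 0.05. This split depended on scaling, with 740 and 895 after median-of-ratios scaling, 751 and 979 after quantile normalization, and 802 and 734 after correction for GC content and length.

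**Figure D2:**
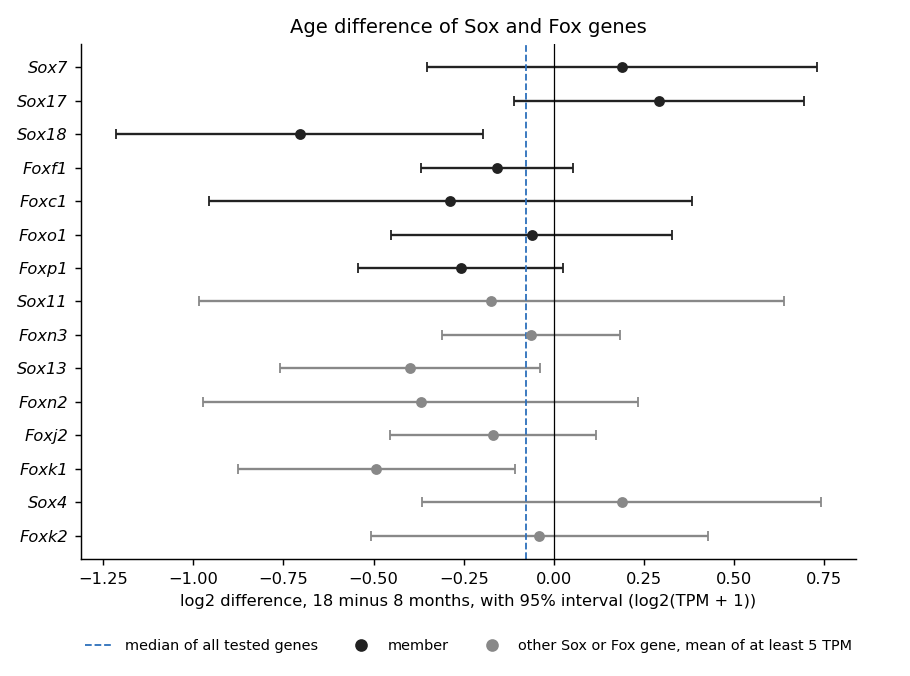
Log2 difference in log2(TPM + 1), 18 minus 8 months, with its 95% limma interval, for the 7 tested members (black) and the 8 other Sox and Fox genes that averaged 5 TPM or more (grey), with the median of all tested genes at -0.079 as a dashed line. The interval lies wholly below 0 for Sox18, Sox13 and Foxk1, and none of these passed the adjusted threshold.

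Sox18 had the widest log2 difference of the 7 tested members as reported, although Sox17 differed by more after the correction for GC content and transcript length. Its level was 151.7, 105.1 and 121.2 TPM at 18 months, against 189.8, 280.8 and 158.4 TPM at 8 months. Every 18-month library was lower than every 8-month library, and the second 8-month library stood well above the other five. The means were 126.0 ± 23.6 TPM at 18 months and 209.7 ± 63.6 TPM at 8 months (SD, n = 3 each), a ratio of 0.601. The log2 difference was -0.71 with an SE of 0.22 and a 95% interval from -1.21 to -0.20, and did not pass (limma unadjusted p = 0.013, adjusted p = 0.23). Without the second 8-month library it was -0.47. With the correction for GC content and transcript length it was -0.43, and the Sox18 transcript, at 60.9% GC, is richer in GC than 97.9% of tested genes.

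Sox7, the SoxF gene nearest to Sox18 in level, lay at 148.0, 110.7 and 106.5 TPM at 18 months, against 128.6, 125.8 and 72.5 TPM at 8 months. The ages overlapped, and the third 8-month library was the lowest. The log2 difference was 0.19 (95% interval -0.35 to 0.73, limma adjusted p = 0.79), and it was -0.078 without the third 8-month library. Sox17, the SoxF gene most tied to arteries in the mouse, lay at 15.5, 17.8 and 19.7 TPM at 18 months, against 12.4, 18.1 and 12.6 TPM at 8 months. Its second 8-month library lay within the 18-month range and the other two below it. The log2 difference was 0.29 (95% interval -0.11 to 0.69, limma adjusted p = 0.52). It was 0.46 without the second 8-month library (limma unadjusted p = 0.020, adjusted p = 0.38) and 0.48 once GC content and transcript length were corrected for (unadjusted p = 0.020, adjusted p = 0.30).

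The makeup of the SoxF group is a within-library measure that no scaling of whole libraries can move. A bias with GC content or length acts within a library and can move it. Transcript GC content is 60.9% for Sox18, 51.0% for Sox7 and 57.3% for Sox17, and the shares and ratios are not corrected for it. Sox18 made up 48.1%, 45.0% and 49.0% of the summed SoxF TPM at 18 months, against 57.4%, 66.1% and 65.0% at 8 months. The ages did not overlap in this share. Sox7 made up 47.0%, 47.4% and 43.1% at 18 months, against 38.9%, 29.6% and 29.8% at 8 months, without overlap. The shares of a library add up to the whole and Sox17 holds little. The Sox7 shares therefore largely mirror those of Sox18 and are not a separate observation. Sox17 held 4.91%, 7.61% and 7.97% at 18 months and 3.75%, 4.27% and 5.18% at 8 months, and here the first 18-month library lay within the 8-month range. The ratio of Sox18 to Sox7 was 1.04 ± 0.0945 at 18 months and 1.97 ± 0.423 at 8 months (SD, n = 3 each), and that of Sox18 to Sox17 was 7.28 ± 2.17 and 14.4 ± 1.65. The ratio of Sox7 to Sox17 was 7.06 ± 2.20 at 18 months and 7.68 ± 2.40 at 8 months, closer together than the spread within an age. The summed SoxF level was 265.4 ± 43.6 TPM at 18 months and 333.0 ± 90.6 TPM at 8 months and overlapped. Shares and ratios are given as a description, without a test. On the log2(TPM + 1) scale the Sox18 difference lay 0.89 below that of Sox7, and -0.75 was the value nearest to 0 among the 18 processing alternatives.

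**Figure D3:**
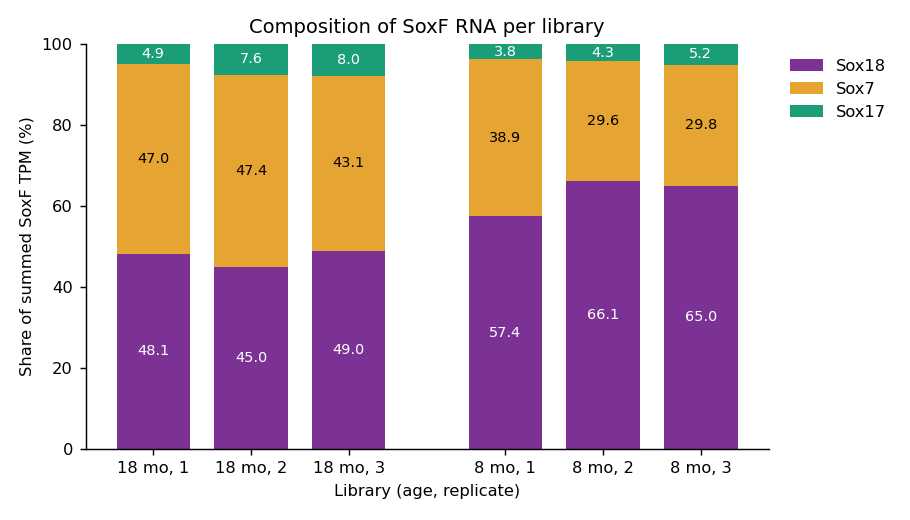
Share of the summed Sox7, Sox17 and Sox18 TPM held by each gene, in percent, with 1 bar per library, 18 months left and 8 months right. Sox18 holds 45.0% to 49.0% in the 18-month libraries and 57.4% to 66.1% in the 8-month libraries.

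Levels of vessel markers are given beside the SoxF values, and their part in them was not tested. In a bulk sample, fewer cells of a type and less RNA per cell cannot be told apart. The 11 markers of aerocytes, the large alveolar capillary cells, all had log2 differences below 0, with summed levels of 4373 to 5028 TPM at 18 months against 5466 to 7185 TPM at 8 months. So did the 9 vein markers, with sums of 497.0 to 629.4 TPM against 623.1 to 1264 TPM. Artery markers summed to 1088 to 1190 TPM against 767.8 to 1027 TPM, with 7 of 10 above 0 in log2 difference. Without Gja4, the most abundant of them, the sums overlapped, at 532.2 to 606.5 TPM against 490.3 to 623.5 TPM. Markers of general capillary cells lay at 5862 to 6237 TPM against 5085 to 6127 TPM. None of these markers was at 0 and none passed in limma. Over all tested genes, 66.2% had log2 differences below 0. The 8 lymphatic markers summed to 602.3 to 759.4 TPM against 917.2 to 1153 TPM. Most of this was Lyve1, and without it the sums were 26.9 to 40.9 TPM against 40.1 to 73.0 TPM, which overlapped. Prox1, the factor that defines lymphatic endothelium, lay between 0.0104 and 0.0449 TPM at 18 months and between 0 and 0.179 TPM at 8 months.

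Of 16 listed partners and targets of SoxF proteins, 15 were tested and 0 passed in limma. At an unadjusted p under 0.05, 2 were higher and 3 lower, where 3.45% and 9.99% of all tested genes were, and the median log2 difference was 0.0094 against -0.079 for all tested genes. Gja4, an arterial connexin, lay at 495.6, 658.1 and 521.6 TPM at 18 months, against 418.6, 403.4 and 277.5 TPM at 8 months, without overlap (log2 difference 0.62, limma adjusted p = 0.21). Nr2f2, the transcription factor of venous identity, lay at 6.89, 5.98 and 6.15 TPM against 8.19, 15.6 and 14.1 TPM, also without overlap (log2 difference -0.85, limma adjusted p = 0.19). Cdh5, the endothelial cadherin, averaged 734.7 TPM at 18 months and 891.7 TPM at 8 months, and Cldn5, a tight junction protein, 1802 and 2170 TPM. Gja4, Nr2f2, Cdh5 and Cldn5 are also on the marker lists given above, as are others of this list. The Notch genes of the list had log2 differences of 0.025 for Notch1, 0.0094 for Notch4 and -0.028 for the ligand Dll4.

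Foxf1 varied least of the 7 tested members, with a highest library 1.20 times the lowest. It lay at 318.2, 274.2 and 289.3 TPM at 18 months, against 329.7, 323.0 and 329.4 TPM at 8 months. The 8-month libraries were nearly equal, and every 18-month library lay below them. The means were 293.9 ± 22.4 TPM at 18 months and 327.4 ± 3.77 TPM at 8 months (SD, n = 3 each), a ratio of 0.898. The log2 difference was -0.16 with an SE of 0.090 and a 95% interval from -0.37 to 0.052 (limma adjusted p = 0.50), and it was 0.0031 after the correction for GC content and length. Foxf1 is also expressed in lung mesenchyme. The 10 fibroblast markers summed to 17.2 to 24.6 TPM at 18 months and 29.2 to 43.3 TPM at 8 months, and the 10 pericyte and smooth muscle markers to 25.5 to 32.7 TPM and 43.8 to 71.9 TPM. The part of these cells in the Foxf1 value was not tested.

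Foxf1 lies on chromosome 8 (GRCm38, 121084386 to 121088144, plus strand), and the long noncoding RNA gene Fendrr starts 1276 bases away on the opposite strand. Fendrr was more abundant than its neighbour in all 6 libraries, with 467.3, 435.0 and 444.1 TPM at 18 months against 399.1, 440.5 and 438.7 TPM at 8 months, which overlapped (log2 difference 0.076, limma adjusted p = 0.77). The ratio of Fendrr to Foxf1 was 1.47, 1.59 and 1.53 at 18 months and 1.21, 1.36 and 1.33 at 8 months, without overlap. No exon bases of Fendrr lay under an opposite-strand exon, while 4.06% of those of Foxf1 did, under Gm27530. That gene was not found by name in the deposited table. The other genes of the locus were low. Foxc2, whose start lies 31785 bases from that of Foxf1, was listed at 0, 0.0698 and 0 TPM in 18-month libraries, against 0, 0.111 and 0.0565 TPM in 8-month libraries. Foxl1 averaged 0.432 TPM at 18 months and 0.609 TPM at 8 months, and Mthfsd, which lies between Foxf1 and Foxc2, 19.9 and 20.7 TPM.

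**Figure D4:**
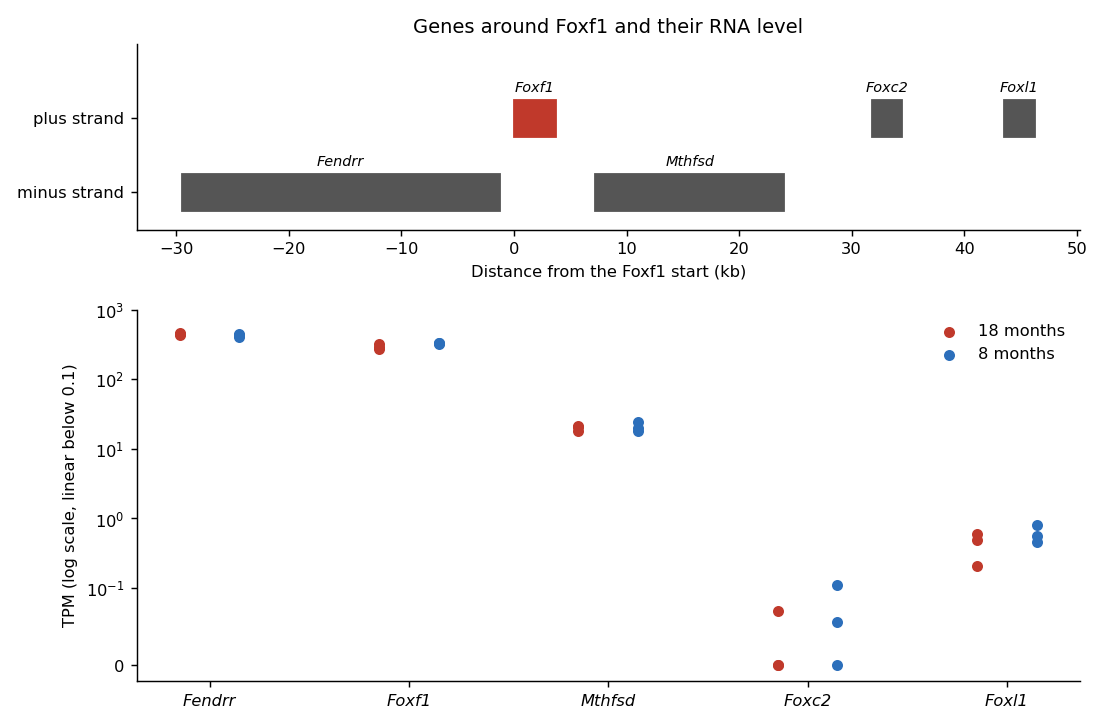
Top, genes around Foxf1 by distance from its start in kb and by strand. Bottom, TPM per library on a log axis that is linear below 0.1, 18 months left of 8 months for each gene. Fendrr and Foxf1 lie between 274.2 and 467.3 TPM, while Foxc2 does not exceed 0.111 TPM.

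Of 16 listed partners and targets of FOXF1, 14 were tested and 0 passed in limma. At an unadjusted p under 0.05, 0 were higher and 5 lower, where 9.99% of all tested genes were lower at that level, and the median log2 difference was -0.091. Kdr, the main VEGF receptor, lay at 401.8, 331.5 and 385.3 TPM at 18 months, against 520.1, 509.1 and 591.2 TPM at 8 months (log2 difference -0.54, limma adjusted p = 0.14). Eng, the co-receptor of BMP9, lay at 454.3, 307.1 and 350.4 TPM against 561.5, 732.8 and 615.4 TPM (log2 difference -0.79, limma adjusted p = 0.14). Acvrl1, the kinase receptor that works with it, averaged 1188 TPM at 18 months and 1480 TPM at 8 months. In none of the 3 did the ages overlap. On the whole list 4 of the 14 tested genes were lower without overlap and 0 higher, beside 14.2% lower over all tested genes. Pecam1, S1pr1, Tek and Kit, also on the list, overlapped. Across endothelial markers as a whole, 9 of 10 had differences below 0, with a median of -0.13. Over all tested genes 66.2% were below 0, with a median of -0.079. Of these markers, Pecam1, Cdh5, Tek and Kdr are also on the FOXF1 list.

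Foxc1, which in the mouse acts with Foxc2 in arteries and lymphatics, lay at 1.29, 0.948 and 0.554 TPM at 18 months, against 0.592, 1.95 and 1.68 TPM at 8 months. The first 8-month library lay among the 18-month ones. The log2 difference was -0.29 with a wide 95% interval, from -0.96 to 0.38 (limma adjusted p = 0.73). It ranged from -0.56 without the first 8-month library to -0.12 without the second, and was -0.055 once GC content and length were corrected for. Of 13 listed FOXC targets and lymphatic partners, 12 were tested and 0 passed in limma, with 2 higher and 1 lower at an unadjusted p under 0.05 (all tested genes, 3.45% and 9.99%). Gja4 and Kdr, given with other lists, are counted here again. Of those not yet named, Hey1, a Notch target, averaged 129.6 TPM at 18 months and 105.7 TPM at 8 months, and Hey2 2.66 and 1.61 TPM.

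Foxo1, required in the mouse for vessel formation and for endothelial quiescence, lay at 26.4, 23.0 and 25.2 TPM at 18 months, against 20.2, 31.9 and 27.0 TPM at 8 months. The 18-month values lay inside the 8-month range. The means were 24.9 ± 1.76 TPM and 26.4 ± 5.89 TPM (SD, n = 3 each), and the log2 difference was -0.062 (95% interval -0.45 to 0.33, limma adjusted p = 0.92). The sign of the difference turned with the scaling. Foxo3 was listed at 0 in every library, as were 3696 of the 20711 protein-coding genes in the table. None of 254 genes of the proteasome, RNA polymerase II, ribosome, respiratory complex I, chaperonin and splicing factor 3, chosen by name, was at 0 in all 6, but 5 averaged under 1 TPM. These were Rpl10l, Rpl39l, Rpl3l and Cct6b, at 0.0139 to 0.758 TPM, and Ndufa13, a subunit of complex I, at 0.181 TPM. Whether all 5 are expected in lung endothelium was not checked. A failed estimate of Foxo3 and absent RNA cannot be told apart in this table. TPM carry no depth, so no upper limit can be put on Foxo3. The mean of the related Foxo4 was 2.87 TPM at 18 months and 2.85 TPM at 8.

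The series concerns DNA methylation, and the start regions of both FOXO genes are shown for their content of CpG, the dinucleotide that carries that mark. Each runs from 250 bases before to 50 bases after the start, from RefSeq on GRCm38.p6, with CpG in capitals. The Foxo1 region is chr3:52268087-52268386 on the plus strand and that of Foxo3 is chr10:42276646-42276945 on the minus strand.
Foxo1: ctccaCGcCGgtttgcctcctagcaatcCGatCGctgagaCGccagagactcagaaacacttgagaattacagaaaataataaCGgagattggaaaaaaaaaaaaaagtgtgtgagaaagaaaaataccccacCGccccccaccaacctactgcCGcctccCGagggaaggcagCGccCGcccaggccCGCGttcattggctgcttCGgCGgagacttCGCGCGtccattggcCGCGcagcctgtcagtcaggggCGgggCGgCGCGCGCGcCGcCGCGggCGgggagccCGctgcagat
Foxo3: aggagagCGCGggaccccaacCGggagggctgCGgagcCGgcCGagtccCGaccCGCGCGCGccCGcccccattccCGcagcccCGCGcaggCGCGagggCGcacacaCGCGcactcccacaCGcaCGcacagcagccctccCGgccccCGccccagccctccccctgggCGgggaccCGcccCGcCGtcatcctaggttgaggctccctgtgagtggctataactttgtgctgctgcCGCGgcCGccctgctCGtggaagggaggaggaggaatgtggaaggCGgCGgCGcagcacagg
The Foxo1 region held 31 CpG and that of Foxo3 35, against a median of 7 over 32851 regions of the same length. The forkhead motif GTAAACA, searched on both strands, was in neither, and 3.6% of all regions held it. The GC box GGGCGG was in both, as in 35.7% of all regions. Methylation was not measured in these libraries, and of the 10 genes 4 had an entry in the sequence table used.

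FOXO regulators and targets were measured beside Foxo1. Of 20 listed regulators 18 were tested and 0 passed in limma, with 1 higher and 0 lower at an unadjusted p under 0.05, a level at which 3.45% of all tested genes were higher and 9.99% lower. The median log2 difference was -0.0084, against -0.079 for all. The 1 was Igf1r, the IGF1 receptor, at 16.4, 15.5 and 17.4 TPM at 18 months against 14.3, 13.2 and 12.9 TPM at 8 months, without overlap (limma adjusted p = 0.36). Akt1 lay below the filter, between 0.176 and 1.45 TPM, and low RNA cannot be told from a failed estimate there. Of 34 listed targets 32 were tested and 0 passed in limma, with 0 higher and 5 lower at an unadjusted p under 0.05, beside 3.45% higher and 9.99% lower over all tested genes. Their log2 differences were below 0 in 26 of 32, where 66.2% of all tested genes were below 0, with a median of -0.17 against -0.079. Cdkn2b, a cell cycle inhibitor, lay at 27.97, 20.8 and 25.2 TPM at 18 months against 33.7, 52.9 and 54.3 TPM at 8 months (log2 difference -0.88, limma adjusted p = 0.16). Nos3, the endothelial nitric oxide synthase, averaged 14.1 TPM at 18 months and 22.9 TPM at 8 months, and Gabarapl1, an autophagy gene, 74.5 and 98.5 TPM. The ages did not overlap in these 3, nor in Eng, which is on this list too. Of the 32 tested targets, 5 were lower without overlap and 0 higher, near the 14.2% lower over all tested genes. The list mixes genes that FOXO proteins activate with some, such as Nos3, that they repress.

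Foxp1, which in the mouse has been tied to endothelial growth, lay at 116.8, 105.0 and 108.9 TPM at 18 months, against 116.7, 126.7 and 155.6 TPM at 8 months. The ages touched, since the first 8-month library lay just below the first 18-month library. The means were 110.2 ± 6.01 TPM and 133.0 ± 20.2 TPM (SD, n = 3 each), and the log2 difference was -0.26 (95% interval -0.54 to 0.024, limma unadjusted p = 0.068, adjusted p = 0.42). It was -0.14 without the third 8-month library and -0.15 after GC content and length correction. Foxp1 made up at least 99.75% of the summed Foxp1, Foxp2 and Foxp4 TPM in every library. Foxp2 had 0.0809, 0.108 and 0.0943 TPM at 18 months, against 0.0648, 0.237 and 0.175 TPM at 8 months. Foxp4 did not exceed 0.160 TPM. Of 12 listed FOXP corepressors and partners 7 were tested and 0 passed in limma, with 1 higher and 0 lower at an unadjusted p under 0.05, against backgrounds of 3.45% and 9.99%. That gene was Sema3c, with means of 538.9 and 399.2 TPM at 18 and 8 months. Sema3c is a guidance ligand, not a corepressor, and is also one of the general capillary markers. None of the tested corepressors reached this level. Among corepressors, Ctbp1 averaged 25.6 TPM at 18 months and 30.9 TPM at 8 months, Ctbp2 25.6 and 28.4 TPM, and Gatad2b, a subunit of the NuRD complex, 3.26 and 5.82 TPM.

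Among the other 16 Sox and 37 Fox genes in the table, 3 and 8 were tested, and 0 passed in limma, with 1 Sox and 1 Fox gene lower at an unadjusted p under 0.05, as were 9.99% of all tested genes. Sox11, best known from neural and embryonic tissue, lay at 90.1, 55.9 and 59.4 TPM at 18 months, against 89.7, 113.7 and 42.3 TPM at 8 months, more than Foxo1 or Sox17 in every library. Sox13 lay at 53.1, 39.4 and 41.4 TPM at 18 months, against 70.1, 55.3 and 52.2 TPM at 8 months (log2 difference -0.40, limma adjusted p = 0.33). One 18-month library lay just inside the 8-month range. Foxk1, a forkhead gene of glucose metabolism and autophagy, lay at 7.84, 6.24 and 8.47 TPM against 9.36, 11.02 and 12.5 TPM, without overlap (log2 difference -0.49, limma adjusted p = 0.26). Sox4 averaged 7.65 TPM at 18 months and 6.73 TPM at 8 months, Foxn3 52.8 and 55.2 TPM, Foxn2 15.7 and 19.5 TPM, Foxj2 9.87 and 11.2 TPM, and Foxk2 5.85 and 5.95 TPM. Foxn3 was the most abundant forkhead gene after Foxf1 and Foxp1.

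Profiles over the 6 libraries were also compared with 9002 other protein-coding genes that averaged 5 TPM or more, by the root mean square difference in log2(TPM + 1) after centring each gene. The genes most like Sox18 were Fam43a, at 0.11, and Apba3, at 0.12. Those most like Sox7 were Hspbap1, at 0.051, and Ier5, at 0.081. Those most like Sox17 were Rab40c, at 0.050, and Nudt7, at 0.058. Those most like Foxf1 were Trappc8, at 0.0098, and Srp68, at 0.010. These distances depend on how much a member varies and cannot be set side by side between members. The spread of the centred profile was 0.10 for Foxf1, 0.24 for Sox17, 0.32 for Sox7 and 0.45 for Sox18. With 6 libraries and 9002 genes, close matches are easy to find, so these are descriptions of these libraries.

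**Figure D5:**
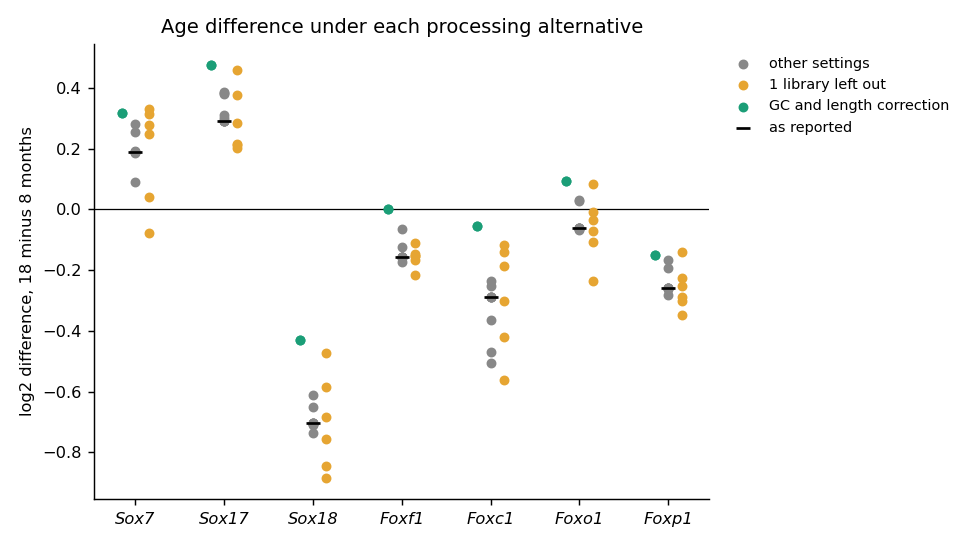
Log2 difference, 18 minus 8 months, of the 7 tested members as reported (black bar) and under the processing alternatives (points, coloured by kind). Sox18 stays between -0.89 and -0.43, while Foxo1, Foxf1 and Sox7 have values on both sides of 0.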

How the data were processed

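RNA-seq was made from 3 libraries at 18 months and 3 at 8 months. The authors deposited TPM per Ensembl gene for each library. kallisto and the build mm10 are named per the submitters' processing notes. The sources used here do not give the kallisto version, the transcript set or the step from transcripts to genes. Depth is unknown, so no counting error is given.

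Symbols and positions came from GENCODE M21 on GRCm38 (mm10), which matched 24298 identifiers and left 222. limma 3.58.1 in R 4.3.3 was fitted with an intensity trend on log2(TPM + 1) for genes that averaged 1 TPM or more, age as the only term, 2-sided, with Benjamini-Hochberg adjustment over all 12748 genes. On this scale the change of low genes is understated. The test was checked on simulated data for these genes, with changes placed only in genes averaging 5 TPM or more. Of 50 genes each it called 8 at a log2 change of 0.5, 28 at 1, 45 at 2 and 50 at 3. There were 9 calls among 12548 unchanged genes, and 0 when none was changed. Its power below 5 TPM, where Foxc1 lies, was not checked. The members and lists were chosen with earlier results of these data known. Named were the 10 members, other Sox and Fox genes averaging 5 TPM or more, up to 4 genes per list by unadjusted p, neighbours of Foxf1 and the most alike profiles. Outside this rule, and after values were seen, Foxo4, Foxp4, Akt1, Prox1, Sftpc, Scgb1a1, Lyz2, Lyve1, Rpl10l, Rpl39l, Rpl3l, Cct6b and Ndufa13 were named. So were Chil3, Cd68, the Notch genes, Pecam1, S1pr1, Tek, Kit and the predicted genes that share bases with a member. Some items that the rule names are not reported here. Alternatives were other pseudocounts (0.1 and 0.5), filters, scalings, weights, a replicate block, a GC content and length correction, and leaving out each library.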

Additional observations from a re-analysis of the deposited data

How the results depend on the processing

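No member passed under any of the 18 alternatives, and the directions of Sox17, Sox18, Foxc1 and Foxp1 held in each one run (Foxc1 has no value with a mean of at least 5 TPM). Sox18 ranged from -0.89 to -0.43, with limma adjusted p between 0.094 and 0.56, Sox17 from 0.20 to 0.48, Foxc1 from -0.56 to -0.055 and Foxp1 from -0.35 to -0.14. Foxo1 turned to 0.029 under median-of-ratios scaling, 0.0305 under quantile normalization, 0.093 with the GC content and length correction, with or without the replicate block, and 0.083 without the second 8-month library (-0.23 to 0.083 over the 6 libraries left out in turn). Foxf1 turned to 0.0031 with the GC content and length correction, with or without the block, and Sox7 to -0.078 without the third 8-month library (-0.078 to 0.33 over the 6). The cause was not tested. Over all genes, 3 passed as reported. The number was 16 with quantile normalization and 94 with library weights. It was 0 with no filter on low values (669 higher and 1534 lower at an unadjusted p under 0.05), 0 with the replicate block (422 and 1023) and 0 with the GC content and length correction plus the block (750 and 677). It was 0 to 4 when 1 library was left out. With library weights 1 gene of the FOXF1 list and 1 of the FOXO target list passed, Eng in both, with a log2 difference of -0.84 and an adjusted p of 0.044. No scaling moved the median of all genes by more than 0.088, but that median was only -0.079 as reported. The median was 0.0057 after median-of-ratios scaling, -0.0033 after quantile normalization and 0.0091 with the GC content and length correction. Deviations of same-numbered libraries correlated at -0.012, -0.090 and 0.057, and those of differently numbered libraries at -0.069 to 0.083. With so few libraries per age, these values cannot tell whether the numbers pair the libraries. Depth is unknown, so for genes near 0, such as Foxo3 and Foxc2, low RNA, absent RNA and a failed estimate cannot be told apart.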
